A study of Mus musculus with 60 samples.

Results

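The comparison described here is that of Sh2b3 knockout with wild-type CD8 T cells after 2 h of stimulation, and it rests on 10 of the 60 libraries of the series. Its members are all libraries labelled with that time: 5 of genotype Sh2b3-/- (KO) and 5 of genotype Sh2b3+/+ (WT). Both groups were NOD mice, a strain prone to autoimmune diabetes, and all expressed the OT-I transgene, a T cell receptor that recognises an ovalbumin peptide. Naive CD8 T cells were purified from spleen by negative selection and stimulated for 2 h through CD3, by antibody fixed to the plate at 10 µg/mL, and through CD28, by antibody in solution at 5 µg/mL, without the anti-IL-2 antibody used elsewhere in the series. The genotype is that of the mice, so the cells carried it before any stimulation. The labels do not say whether the 5 libraries of a group were made from different animals or cultures, and p-values therefore cover only the spread between these libraries, which may be technical. Library names run consecutively through the WT group and then through the KO group, so any order of handling cannot be told apart from genotype.

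SH2B3, also known as LNK, is an adaptor protein that binds activated cytokine receptors and their JAK kinases and dampens the signal. In T cells the cytokines of the common gamma chain family, IL-2 among them, signal through JAK1 and JAK3 to STAT5. A naive T cell that is triggered through its antigen receptor and CD28 first transcribes immediate early genes such as the EGR and NR4A factors. It then begins to express IL2RA, the alpha chain that gives the IL-2 receptor its high affinity and whose gene is itself a STAT5 target.

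The targeted transcript was low in every KO library. Levels below are CPM, the read count of a gene relative to its library's total after TMM scaling, which evens out library composition, over all 60 libraries. Log2 differences are KO minus WT from edgeR's quasi-likelihood test with Benjamini-Hochberg adjustment over 12372 genes tested. Sh2b3 stood at 22.3, 20.3, 31.4, 24.3 and 14.1 CPM in the KO libraries, against 151.7, 143, 145, 150 and 171 CPM in the WT libraries. The groups did not overlap, and the KO mean was 14.8% of the WT mean (log2 difference −2.77 ± 0.16 (SE), n = 5 each, adjusted p = 3.4e-06). At 0 h Sh2b3 averaged 13.7 ± 3.21 CPM in KO and 80.4 ± 8.03 CPM in WT cells (SD, n = 11 each), and at 6 h 20.6 ± 5.15 and 115 ± 12.5 CPM (SD, n = 5 each). At 24 h the means were 10.9 ± 0.93 CPM in KO and 69.8 ± 5.69 CPM in WT cells (n = 5 each), and with anti-IL-2 they were 16.8 ± 3.77 and 80.2 ± 7.91 CPM (n = 4 each). Of the differences at 0, 2 and 6 h that at 2 h was the largest in log2 units, but it was not called as different from that at 0 h (interaction −0.50 ± 0.17, adjusted p = 0.64) or at 6 h (−0.27 ± 0.23, adjusted p = 1.0) in edgeR.

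One library stood apart and is given here before the other results. On the first principal component of the 10 libraries, which held 28.4% of the variance of the 500 most variable genes, KO replicate 3 lay at 36.5 and the other 9 libraries between −7.3 and −0.3. Its mean correlation with the others was 0.968, against 0.976 to 0.982 for the rest. Among 8137 genes that averaged 10 CPM or more in the other libraries, 45 stood at least 2-fold above all 9 of them in KO replicate 3, whereas each of the other libraries had between 0 and 3 such genes. Total counts were 17121772 to 19013798 in KO and 14224604 to 17118101 in WT libraries, a difference with an exact two-sided permutation p of 0.00794 (adjusted over 4 measures, 0.0317; the smallest p the design allows is 0.00794). The mitochondrial share was 1.66 to 1.98% in KO and 1.67 to 2.17% in WT libraries (exact permutation p = 0.135). What depth contributed to the results was not tested.

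The purified cells had the transcripts of CD8 T cells. Cd8a, a CD8 coreceptor chain, averaged 408 CPM in KO and 401 CPM in WT libraries. None of the 12 CD8 T cell markers was called. Summed markers of NK cells were 14.6 to 42.3 CPM in KO and 22.98 to 46.6 CPM in WT libraries. That list includes Eomes, an effector and memory T-box factor gene, at 33.6, 31.7, 37.3, 31.5 and 11.3 CPM in KO replicates 1 to 5. The KO sums were 38.2, 34.9, 42.3, 35.4 and 14.6 CPM in the same order. In WT libraries Eomes was at 17.9 to 39.7 CPM. The NK sums thus follow mainly Eomes and are not a measure of NK cells. Summed markers of monocytes and macrophages were 8.77 to 18.5 CPM in KO and 5.51 to 8.09 CPM in WT libraries. Those of neutrophils were 0.70 to 2.75 CPM in KO and 0.58 to 1.09 CPM in WT libraries. Those of B cells were 186 to 396 CPM in KO and 288 to 356 CPM in WT libraries, with KO replicate 3 the lowest, and those of CD4 and regulatory T cells 245 to 470 CPM in KO and 305 to 437 CPM in WT libraries, with KO replicate 3 the highest of all. Dendritic cell and MHC class II markers summed to 71.7 to 85.2 CPM in KO and 71.2 to 97.3 CPM in WT libraries, erythroid markers to 15.8 to 98.99 CPM in KO and 22.8 to 51.7 CPM in WT libraries, and platelet markers to 28.9 to 47.7 CPM in KO and 28.4 to 32.3 CPM in WT libraries. No tested marker of these cell types was called. Klrb1c, the NK1.1 antigen gene, was at 0.32 to 0.76 CPM in KO and 1.45 to 2.31 CPM in WT libraries, without overlap (adjusted p = 0.092). Ccr2, a chemokine receptor gene counted here among monocyte markers, was at 2.48 to 13.5 CPM in KO and 0.73 to 2.72 CPM in WT libraries (adjusted p = 0.16). Without KO replicate 3 it was called (2.31 ± 0.43, edgeR, adjusted p = 0.041). In KO replicates 1 to 5 it made up 6.31, 3.07, 2.48, 13.5 and 4.75 CPM of monocyte and macrophage sums of 10.97, 8.77, 9.98, 18.5 and 10.8 CPM. The difference of these sums between the groups thus rests largely on Ccr2. In bulk RNA, fewer cells of a type and less RNA per cell cannot be told apart.

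Beyond Sh2b3, few transcripts separated the genotypes at 2 h. Of 12372 genes tested, 8 were called at an adjusted p under 0.05 (0.0647%), 4 higher (0.0323%) and 4 lower (0.0323%) in KO. Those lower were Sh2b3, Il2ra, Trat1 and Ly6c1, and those higher were Ubald2, Tex2, Atxn2 and the pseudogene Gm6472. In all 8 the KO and WT libraries did not overlap, which held for 302 of the tested genes (2.44%), with KO above WT in 1.37% and below it in 1.08%. Choosing genes by p in the same libraries favours groups that do not overlap, so this adds no support to the calls. With DESeq2 size factors in place of TMM, Sh2b3, Gm6472, Tex2 and Ubald2 were called, and Il2ra, Trat1, Ly6c1 and Atxn2 were not. The median log2 difference of all genes was 0.01, and 51.8% of genes had a positive one.

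**Figure D1:**
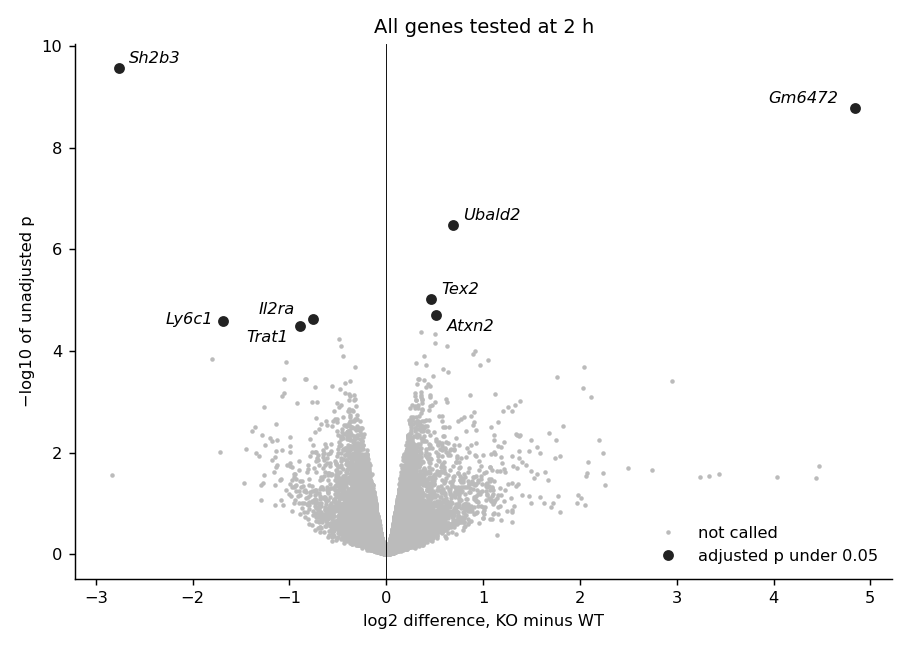
Each point is 1 of 12372 genes, with the log2 difference (KO minus WT) on the x axis and the −log10 of the unadjusted p on the y axis. The 8 called genes are labelled, and Sh2b3 and Gm6472 have the smallest p.

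Il2ra, which encodes the alpha chain of the IL-2 receptor (CD25), was lower in KO cells. It stood at 67.3, 74.5, 88.6, 70.1 and 47.9 CPM in the KO libraries, against 114, 133.6, 113, 120 and 106 CPM in the WT libraries. The highest KO library, replicate 3, was below the lowest WT library. The log2 difference was −0.76 ± 0.12 (SE, n = 5 each), and the KO mean was 59.4% of the WT mean (adjusted p = 0.044). Without KO replicate 3 the difference was −0.86 ± 0.11 with an adjusted p of 0.00076 (edgeR, 4 KO and 5 WT libraries). The call was held in 3 of 10 fits that left out 1 library and was lost in the other 7, with an adjusted p of 0.104 to 0.17 there. The DESeq2 Wald test and limma voom with quality weights called more genes, 122 and 82 of 12372. Il2ra was among them (adjusted p = 2.1e-05 and 2.5e-04). In the joint fit of 30 libraries at 0, 2 and 6 h, which estimates 1 spread over the 3 times, the difference was −0.77 ± 0.32 and was not called (edgeR, adjusted p = 0.40). That fit called 13 of 14593 genes (0.0891%) between KO and WT at 2 h, 4 of them among the 8.

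The other called genes lower in KO were an adaptor of the T cell receptor and a Ly6 surface protein. Trat1, which encodes the transmembrane adaptor TRIM that associates with the T cell receptor complex, stood at 64.2, 56.4, 54.2, 59.3 and 35.5 CPM in KO libraries, against 110, 114, 95.6, 99.6 and 75.9 CPM in WT libraries. The groups did not overlap, and replicate 5 was the lowest library in both (log2 difference −0.89 ± 0.14, adjusted p = 0.0498). Ly6c1, which encodes a GPI-anchored surface protein found on memory-phenotype CD8 T cells, was scarce, at 0.94 to 2.48 CPM in KO and 3.32 to 5.83 CPM in WT libraries (−1.68 ± 0.29, adjusted p = 0.044). Its near-identical neighbour Ly6c2 was at 14.8 to 51.2 CPM in KO and 19.1 to 41.7 CPM in WT libraries, with overlapping groups (adjusted p = 0.97), and how the authors' counting divided reads between the copies is not given in the sources used here. Trat1 and Ly6c1 kept their calls in 3 and 4 of the 10 fits without 1 library. The 30-library fit called Trat1 (−0.90 ± 0.15, edgeR, adjusted p = 0.0036) and did not call Ly6c1 (adjusted p = 0.14).

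Ubald2 and Tex2 were higher in KO cells. Ubald2, a gene named for its ubiquitin-associated-like domain, stood at 215, 219, 237, 218 and 216 CPM in KO libraries, against 113, 158.1, 129, 148 and 137.8 CPM in WT libraries. The KO libraries thus lay within a narrow range above all WT libraries (log2 difference 0.68 ± 0.08, adjusted p = 0.0014), and the call held in all 10 fits without 1 library. In the 30-library fit it was 0.68 ± 0.16 and not called (edgeR, adjusted p = 0.13). That fit gave Ubald2 0.48 ± 0.16 at 0 h (adjusted p = 0.82) and 0.85 ± 0.16 at 6 h, where it was called (adjusted p = 0.020). Tex2, whose product carries a lipid-binding domain, was at 77.3, 71.5, 75.4, 75.3 and 66.0 CPM in KO libraries, against 49.2, 55.7, 50.3, 52.9 and 56.4 CPM in WT libraries (0.46 ± 0.07, adjusted p = 0.029). Tex2 was called in 3 of the 10 fits without 1 library and not in the 30-library fit (adjusted p = 0.074).

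Atxn2 encodes the RNA-binding protein ataxin-2 and is a neighbour of Sh2b3 on chromosome 5. It stood at 101, 94.1, 122, 102 and 104 CPM in KO libraries, against 74.3, 79.1, 78.5, 64.4 and 69.2 CPM in WT libraries (0.51 ± 0.09, adjusted p = 0.044). The call held in 3 of the 10 fits without 1 library and was lost in the other 7, with an adjusted p of 0.0629 to 0.17 there (edgeR), and it held in the 30-library fit (0.50 ± 0.09, adjusted p = 0.0078). The 30-library fit gave Atxn2 0.32 ± 0.09 at 0 h (edgeR, adjusted p = 0.46) and 0.47 ± 0.09 at 6 h, where it was called (adjusted p = 0.013). Of the 25 neighbours listed, 23 were tested, and Atxn2 was the 1 that was called at 2 h. Trafd1, another of them and a regulator of innate immune signalling, was at 73.6 to 93.4 CPM in KO and 57.8 to 80.5 CPM in WT libraries, with an adjusted p of 0.21. The labels do not describe the chromosome around the deletion, so a difference carried by that stretch and one that follows from the loss of Sh2b3 cannot be told apart.

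Gm6472 is annotated in GENCODE M21 as a transcribed processed pseudogene on chromosome X, and its reads may be shared with other copies. It stood at 238, 222, 187, 388 and 198 CPM in KO libraries, against 6.54, 11.01, 8.07, 9.67 and 7.38 CPM in WT libraries. The KO mean was 28.9 times the WT mean (log2 difference 4.84 ± 0.25, adjusted p = 1.0e-05), and at 0 h it averaged 335 ± 126 CPM in KO and 11.9 ± 3.13 CPM in WT cells (SD, n = 11 each). The difference was thus present before stimulation, and the interaction of 2 h against 0 h was −0.15 ± 0.37 (edgeR, adjusted p = 0.96).

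**Figure D2:**
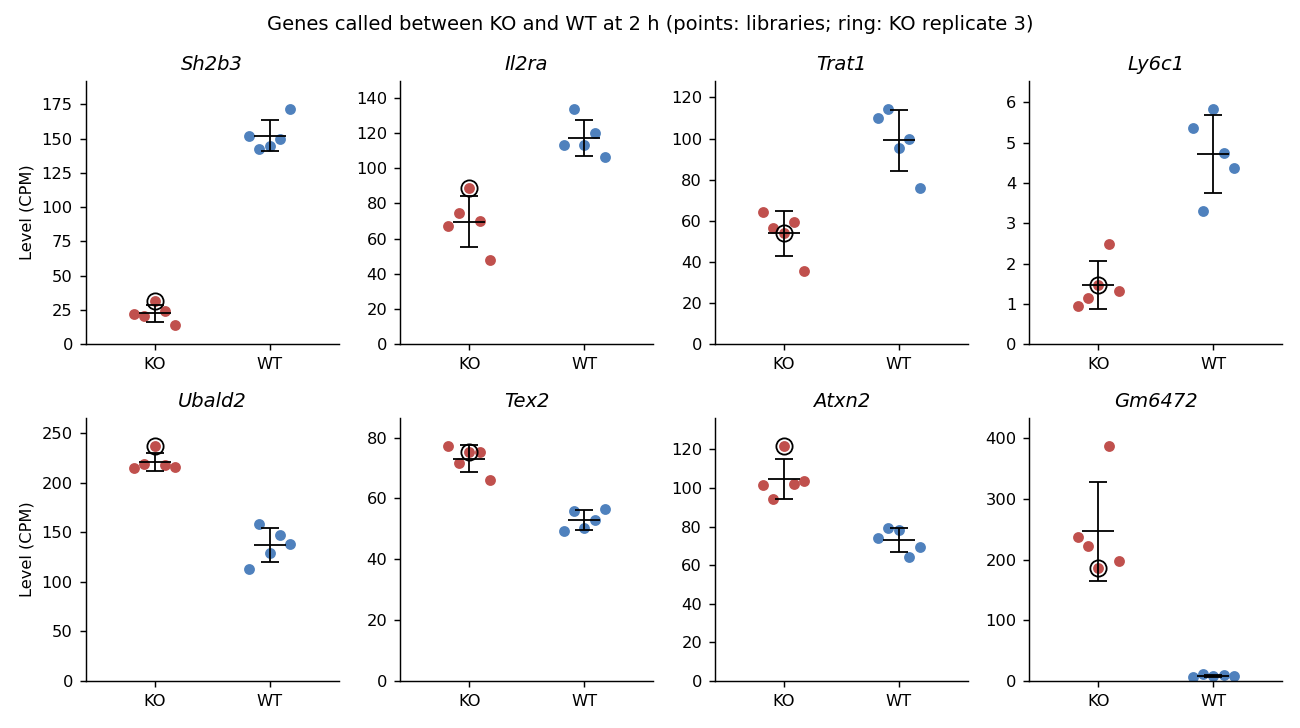
Levels (CPM, linear axes from 0) of the 8 called genes in each 2 h library, with KO on the left and WT on the right of each panel. Points are libraries, bars are the mean and SD of 5 libraries, and rings mark KO replicate 3, which lies on its own group's side in each panel.

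The RefSeq windows around the start sites of these genes were read for motifs of factors that act early in T cell activation. The windows of 4 are shown because these genes carry the non-Sh2b3 calls with a T cell role, Il2ra, Trat1 and Ly6c1, and the call of a higher gene that held in every fit without 1 library, Ubald2. Each window runs from 250 bases before to 50 bases after the start on GRCm38.p6, a build that the expression files do not use. They are Il2ra at chr2:11642542-11642841 (plus strand), Trat1 at chr16:48772013-48772312 (minus strand), Ly6c1 at chr15:75048788-75049087 (minus strand) and Ubald2 at chr11:116433844-116434143 (plus strand). Capitals mark matches on either strand to TTCNNNGAA (STAT), TGANTCA (AP-1), GGAAAA (NFAT), GCGNGGGCG (EGR) or GGGANTNCC (NF-kB), none of which overlapped another.
Il2ra: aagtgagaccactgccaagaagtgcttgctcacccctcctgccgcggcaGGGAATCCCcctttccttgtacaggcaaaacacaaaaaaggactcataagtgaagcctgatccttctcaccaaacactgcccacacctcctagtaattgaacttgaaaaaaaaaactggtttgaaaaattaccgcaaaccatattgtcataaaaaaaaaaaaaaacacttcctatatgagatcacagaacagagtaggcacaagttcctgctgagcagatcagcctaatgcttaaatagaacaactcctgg
Trat1: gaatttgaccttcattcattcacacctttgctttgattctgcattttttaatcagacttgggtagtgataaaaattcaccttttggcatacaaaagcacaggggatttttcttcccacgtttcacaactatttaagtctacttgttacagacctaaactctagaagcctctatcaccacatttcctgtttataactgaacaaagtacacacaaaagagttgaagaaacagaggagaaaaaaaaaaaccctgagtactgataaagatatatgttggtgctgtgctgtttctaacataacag
Ly6c1: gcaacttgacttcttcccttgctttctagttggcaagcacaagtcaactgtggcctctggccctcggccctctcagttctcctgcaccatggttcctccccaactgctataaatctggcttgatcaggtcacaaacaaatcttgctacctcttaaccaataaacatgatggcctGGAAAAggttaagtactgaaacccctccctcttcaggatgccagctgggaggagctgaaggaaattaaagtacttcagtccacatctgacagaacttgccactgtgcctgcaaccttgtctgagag
Ubald2: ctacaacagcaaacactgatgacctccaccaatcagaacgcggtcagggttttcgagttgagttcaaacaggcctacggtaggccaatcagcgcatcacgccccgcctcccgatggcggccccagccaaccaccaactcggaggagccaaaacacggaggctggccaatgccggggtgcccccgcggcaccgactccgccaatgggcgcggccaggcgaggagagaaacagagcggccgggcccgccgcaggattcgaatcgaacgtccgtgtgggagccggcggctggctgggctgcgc

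The Il2ra window held 1 NF-kB match, 201 bases before the start, and none of the other motifs. The Ly6c1 window held 1 NFAT match, 76 bases before the start. The same letters open a second Ly6c1 window in RefSeq, 250 bases before that window's start site. The windows of Trat1 and Ubald2 held none of the 5. Of the other called genes matched to a window, Atxn2 held 1 EGR match, 239 bases before the start, in 1 of its 2 windows, and Sh2b3 and Tex2 held none. Among 32851 RefSeq windows of this length, 3.95% held the NF-kB letters, 23.4% the NFAT letters, 8.3% the STAT letters, 7.81% the AP-1 letters and 5.55% the EGR letters. A match is a description of the letters and not a site.

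The genes next in order of p give a view of what lay just under the threshold. The 12 uncalled genes of smallest p with a mean of at least 4 CPM had 8 positive and 4 negative differences. In 11 of them the groups did not overlap, against 2.44% of all tested genes, which their choice by p in the same libraries favours. Ufd1, a cofactor in the extraction of ubiquitinated proteins, was at 100.5 to 105 CPM in KO and 73.7 to 83.7 CPM in WT libraries (0.36 ± 0.06, adjusted p = 0.056). Trappc12, a subunit of a vesicle-tethering complex on chromosome 12, was at 40.6 to 58.4 CPM in KO and 67.1 to 70.1 CPM in WT libraries (−0.49 ± 0.09, adjusted p = 0.064). Adi1, a methionine salvage enzyme on the same chromosome, was at 19.5 to 44.5 CPM in KO and 13.4 to 17.4 CPM in WT libraries (0.92 ± 0.17, adjusted p = 0.081). Vps37b, a subunit of the ESCRT-I sorting complex, lies on chromosome 5 like Sh2b3. It was at 697 to 871 CPM in KO and 433 to 636 CPM in WT libraries (edgeR, adjusted p = 0.070). Cd200, the ligand of an inhibitory receptor, was at 2.54 to 5.13 CPM in KO and 6.73 to 9.82 CPM in WT libraries (−1.03 ± 0.21, adjusted p = 0.096). The remaining 7 were Lrmp, Pou6f1, Plekha6, Rnf125, Zfp984, Igfbp4 and Ss18, with adjusted p of 0.070 to 0.097. The 30-library fit did call 4 of the 12 at 2 h, Trappc12, Adi1, Ufd1 and Lrmp (edgeR, adjusted p = 6.1e-04, 0.0078, 0.013 and 0.016). In that fit Ufd1 was also called at 0 h and 6 h (adjusted p = 0.012 and 3.9e-04), and Trappc12 at 6 h (adjusted p = 0.0094).

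More genes passed when the library that stood apart was left out. Without KO replicate 3, 45 of 12598 genes were called (0.357%), among them all 8 above and 9 of these 12. Leaving out WT replicate 5 gave 63 of 12592 (0.5%), again with all 8 and with 9 of the 12, and 19 genes were called in both fits. Without KO replicate 3 the differences of the called genes were −2.92 ± 0.12 for Sh2b3, −0.89 ± 0.16 for Trat1, −1.68 ± 0.30 for Ly6c1, 0.66 ± 0.08 for Ubald2, 0.45 ± 0.08 for both Tex2 and Atxn2, and 4.93 ± 0.24 for Gm6472. In that fit Coro2a, a coronin that binds actin, had a difference of 1.29 ± 0.21 (edgeR, adjusted p = 0.014), and Ly6a, which encodes Sca-1, one of −0.72 ± 0.14 (adjusted p = 0.034). The biological coefficient of variation was 20.7% over the 5 KO libraries, 13.99% over 4 of them without replicate 3, and 13.3% over the 5 WT libraries.

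Cytokine receptor and JAK-STAT genes other than Il2ra did not pass the test. Of 23 tested members of the list of common gamma chain receptors, JAKs and STATs, 1 was called, Il2ra, and 15 had a positive difference, with a median of 0.08. At an unadjusted p under 0.05, 3 were higher and 4 lower, against 7.06% and 6.06% of all genes. Il2rb, the IL-2 receptor beta chain, stood at 661, 598, 778, 594 and 422 CPM in KO libraries, against 495, 448, 484, 451 and 531 CPM in WT libraries. Its groups overlapped through KO replicate 5, and its difference of 0.34 ± 0.12 was opposite in sign to that of Il2ra (adjusted p = 0.28). Stat5b, a STAT5 gene, was at 692 to 831 CPM in KO and 634 to 748 CPM in WT libraries (adjusted p = 0.26). Sh2b1, a paralog of Sh2b3, was at 174 to 206 CPM in KO and 140 to 174 CPM in WT libraries (edgeR, adjusted p = 0.26).

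Targets of IL-2 and STAT5 and the feedback inhibitors showed no called gene besides Il2ra. Of 35 tested members of the target list, 21 had a positive difference (median 0.14), and the median was 0.03 without KO replicate 3. None of 14 tested SOCS and feedback genes was called. Socs3, an inhibitor of cytokine signalling, was at 73.2, 68.8, 130, 79.2 and 81.7 CPM in KO libraries, against 36.7, 51.5, 45.5, 61.4 and 70.9 CPM in WT libraries. Its groups overlapped in 1 KO library, replicate 2, and the difference was 0.70 ± 0.21 (adjusted p = 0.25). Socs1 was at 51.0 to 105 CPM in KO and 46.4 to 66.5 CPM in WT libraries (edgeR, adjusted p = 0.35). Cish, a STAT5-induced inhibitor, was at 18.6 to 64.1 CPM in KO and 17.7 to 38.1 CPM in WT libraries (edgeR, adjusted p = 0.76). Il2 itself was scarce at this time, at 0.94 to 3.31 CPM in KO and 1.26 to 2.19 CPM in WT libraries. Socs2 was below the filter in both groups.

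Immediate early genes were spread widely between KO libraries and narrowly between WT libraries. Their summed level was 11447, 12774, 20504, 13251 and 7027 CPM in the KO libraries, against 12380, 9992, 10900, 11009 and 11900 CPM in the WT libraries. KO replicates 2, 3 and 4 were above all WT libraries, replicate 3 the farthest, KO replicate 1 was within their range and KO replicate 5 was below all of them. Nr4a1, which encodes the orphan nuclear receptor NUR77 induced by antigen receptor signals, had its KO libraries placed in the same way, at 1269, 1718, 3466, 1667 and 712 CPM in KO and 1635, 1135, 1304, 1266 and 1630 CPM in WT libraries. None of 32 tested members was called. At an unadjusted p under 0.05 in edgeR, 9 were higher and 1 lower, against 7.06% and 6.06% of all genes. The median difference was 0.34 with 25 of 32 positive, and it was 0.07 without KO replicate 3. Egr1, Egr2 and Egr3 had differences of 0.11 ± 0.34, −0.06 ± 0.33 and 0.19 ± 0.39. Those of Egr1, Egr3 and Nr4a1 were negative without KO replicate 3 (−0.19, −0.20 and −0.06). By contrast, Jund, an AP-1 gene, had a difference of 0.38 ± 0.14 (edgeR, adjusted p = 0.28), which stayed at 0.31 to 0.53 without 1 library.

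The same 2 libraries bounded most other lists. Among the 25 lists that are not cell type markers or RNA quality, KO replicate 3 had the highest sum of the KO libraries in 18, KO replicate 5 the lowest in 19, and both held in 16. The ratio of highest to lowest sum was wider in KO than in WT in 21 of the 25. For MYC targets and ribosome biogenesis the sums were 9457, 10129, 12220, 9404 and 6789 CPM in KO and 9780, 9946, 10160, 10717 and 9135 CPM in WT libraries. Myc, the transcription factor gene, was at 489, 544, 696, 508 and 201 CPM in KO and 556, 501, 472, 511 and 395 CPM in WT libraries, with a mean of 487 CPM in each group. Of 50 tested MYC list members 5 had a positive difference, and the median was −0.14 (−0.24 without KO replicate 3), with none called and 5 lower and 1 higher at an unadjusted p under 0.05. Naive and quiescence genes ran the other way, with KO replicate 3 the lowest KO library and KO replicate 5 the highest.

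**Figure D3:**
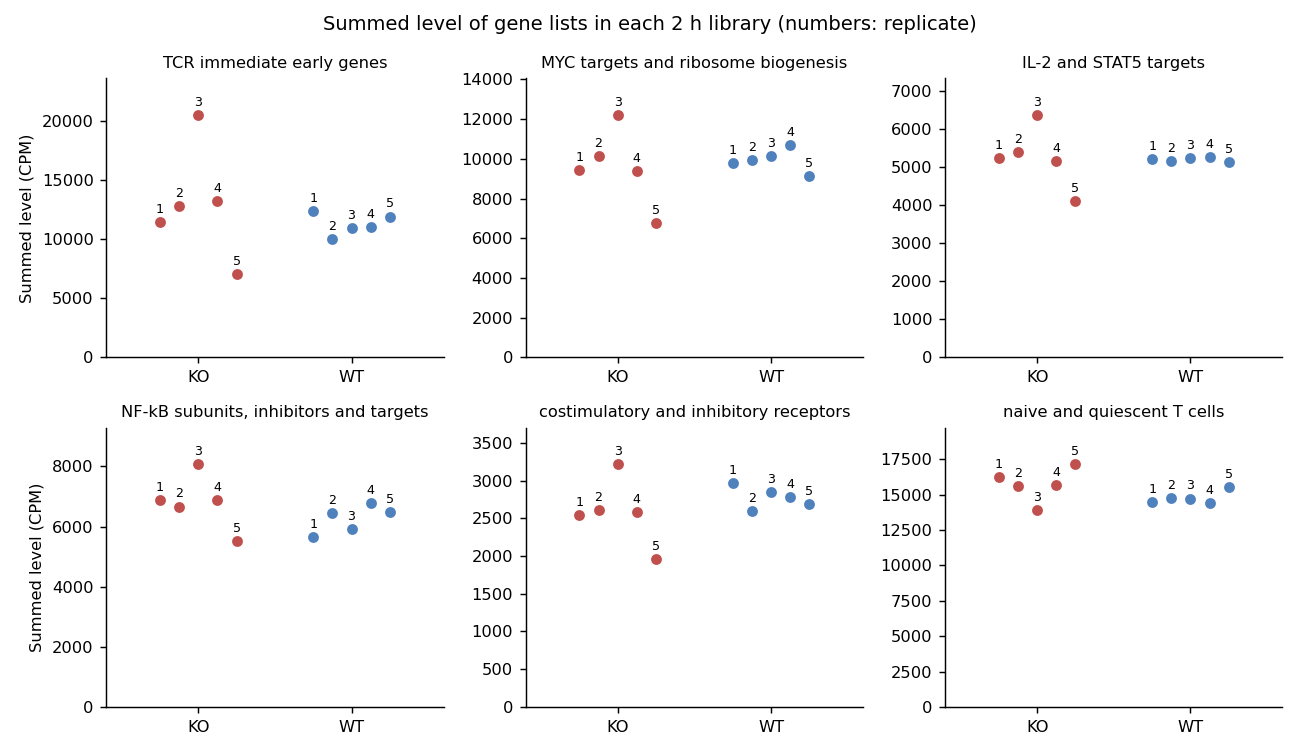
Summed level (CPM, axes from 0) of 6 gene lists in each 2 h library, KO on the left and WT on the right, with replicate numbers beside the points. KO replicates 3 and 5 lie at opposite ends of the KO group in each panel, while the WT libraries lie closer together.

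Several effector genes were high in KO replicate 3. None of 20 tested effector genes and regulators was called, and their median difference was 0.27, or 0.02 without that library. Tbx21, which encodes the effector transcription factor T-bet, was at 22.2, 16.5, 156.2, 22.6 and 13.1 CPM in KO libraries, against 23.9, 8.76, 14.03, 10.3 and 19.1 CPM in WT libraries. Without replicate 3 the KO mean was 18.6 ± 4.59 CPM (SD, n = 4). Cxcr3, a chemokine receptor gene of effector and memory T cells, was at 85.8 CPM in that library, 8.37 to 15.8 CPM in the other KO libraries and 8.03 to 10.1 CPM in WT libraries. Bag3, a heat shock co-chaperone gene, was at 71.4 CPM in it, 4.93 to 8.25 CPM in the other KO libraries and 2.65 to 4.74 CPM in WT libraries, and Cd163l1, a gene of gamma delta T cells, at 135.2, 10.5 to 18.4 and 12.5 to 20.9 CPM in the same order. In the 0 h and 6 h KO libraries whose numbers end in the same digit, Cd163l1 was at 289 and 45.9 CPM, against 21.6 to 39.97 and 4.07 to 15.3 CPM in the other 4 KO libraries of those times in the same run of numbers. The labels do not say whether these 3 libraries share an animal. Summed gamma delta T cell markers were 560 CPM in KO replicate 3, 152.9 to 248 CPM in the other KO libraries and 267 to 310 CPM in WT libraries, and their part in the effector levels was not tested. Of these 13 markers 10 were tested and none was called.

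In the lists of T cell receptor machinery, costimulatory and inhibitory receptors, and naive T cell genes, Trat1 was the 1 called gene. Of 35 tested members of the proximal T cell receptor machinery 1 was called, Trat1, and the median difference was 0.03. Cd28, the costimulatory receptor engaged in the culture, was at 335, 295, 314, 318 and 240 CPM in KO libraries, against 461, 378, 400, 383 and 325 CPM in WT libraries (−0.38 ± 0.10, adjusted p = 0.18). Rasgrp1, which links the receptor to RAS, was at 350 to 526 CPM in KO and 484 to 643 CPM in WT libraries (−0.37 ± 0.10, adjusted p = 0.21). Of 21 tested costimulatory and inhibitory receptors 5 had a positive difference, and the median was −0.07 (−0.33 without KO replicate 3), with none called. Id3, an inhibitor of E proteins kept by naive T cells, was at 94.6, 89.9, 67.9, 80.99 and 45.1 CPM in KO libraries, against 153.4, 132.4, 147, 114 and 127 CPM in WT libraries, without overlap (−0.84 ± 0.17, adjusted p = 0.13). Txnip, a repressor of glucose uptake, was at 518 to 683 CPM in KO and 393 to 498 CPM in WT libraries, also without overlap (0.37 ± 0.09, adjusted p = 0.17). The naive and quiescent list as a whole had 23 of 31 tested members positive and none called, with a median of 0.12.

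Other pathways held no called member. NF-kB genes had 16 of 20 positive (median 0.14, and 0.06 without KO replicate 3), with Tnfaip3, a feedback inhibitor, at 796 to 1375 CPM in KO and 719 to 920 CPM in WT libraries (adjusted p = 0.22). Dusp10, a phosphatase of stress-activated kinases, was at 112 to 163 CPM in KO and 75.8 to 106 CPM in WT libraries, without overlap (0.47 ± 0.12, adjusted p = 0.17). Interferon-stimulated genes of the type I list had a median of 0.04 over 51 tested members. Irf1, an interferon-induced factor, was at 200 to 358 CPM in KO and 168 to 197 CPM in WT libraries (adjusted p = 0.25). Glycolysis, cholesterol and SREBP, PI3K and mTOR, ATF4, apoptosis and G1 lists had medians between −0.003 and 0.13, and none of their members was called.

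**Figure D4:**
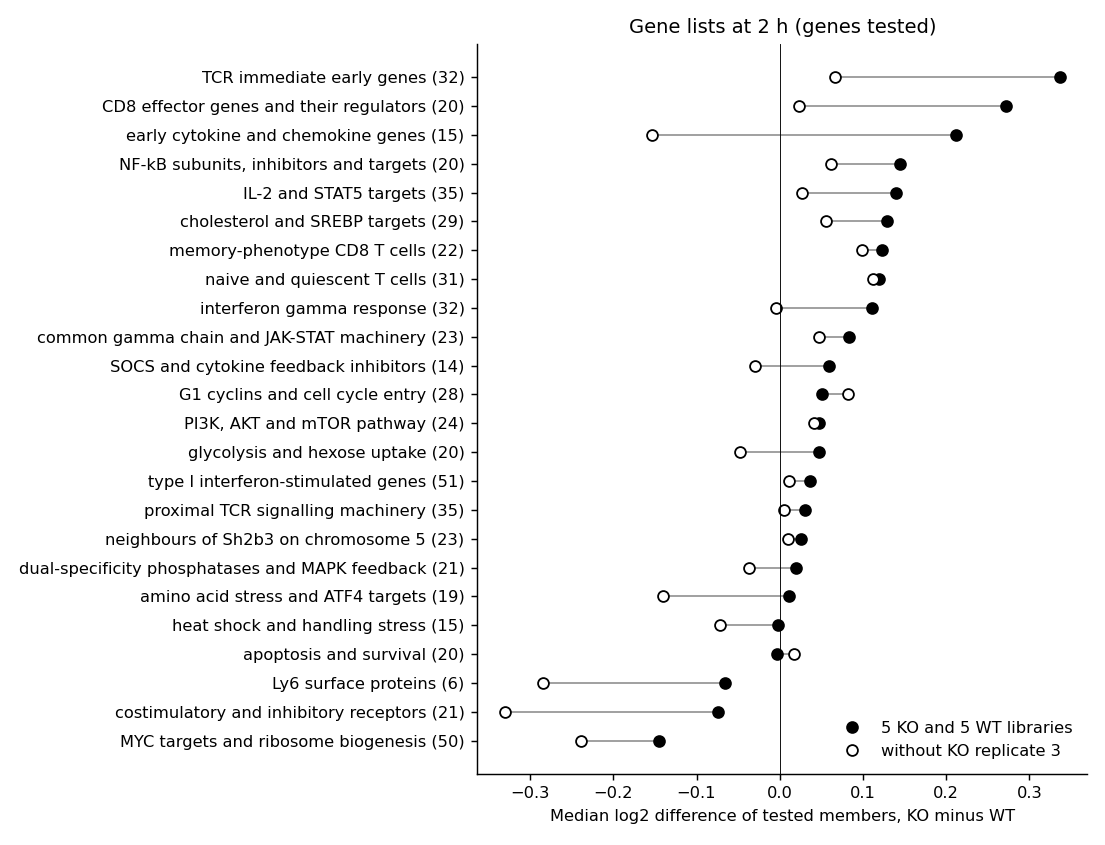
Median log2 difference (KO minus WT) of the tested members of 24 gene lists, over all 10 libraries (filled) and without KO replicate 3 (open), with the number of genes tested in parentheses. The median of immediate early genes is 0.34 with that library and 0.07 without it, and early cytokine genes, SOCS genes and glycolysis genes are among the lists whose median changes sign.

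Whether the genotype difference at 2 h departs from that at the adjacent times was tested as an interaction over the libraries numbered 1 to 30. No gene of 13809 was called for 2 h against 0 h and none of 13718 for 2 h against 6 h, with 949 (6.87%) and 345 (2.51%) at an unadjusted p under 0.05 (edgeR). By the DESeq2 Wald test 2 were called against 0 h, Atg2a and Tex2, and 0 against 6 h. In the fit of 30 libraries Tex2 differed by −0.07 ± 0.10 at 0 h, 0.45 ± 0.10 at 2 h and 0.44 ± 0.10 at 6 h. Trat1 differed by −0.19 ± 0.15, −0.90 ± 0.15 and −0.47 ± 0.14 at these times. From 0 h to 2 h Trat1 changed by −0.08 ± 0.15 in KO cells (adjusted p = 0.67) and rose by 0.62 ± 0.15 in WT cells (adjusted p = 5.5e-04), and the interaction was −0.70 ± 0.20 (edgeR, adjusted p = 0.64).

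Il2ra rose on stimulation in both genotypes. It averaged 2.29 ± 1.21 CPM in KO and 4.08 ± 0.91 CPM in WT cells at 0 h (SD, n = 11 each). It rose at 2 h by 5.19 ± 0.42 in KO and 4.65 ± 0.39 in WT cells on the log2 scale (30-library fit, adjusted p = 9.6e-11 and 1.4e-10). The KO minus WT difference was −1.31 ± 0.46 at 0 h, −0.77 ± 0.32 at 2 h and −0.25 ± 0.31 at 6 h in that fit, none of them called. At 6 h the levels were 69.2 to 363 CPM in KO and 133.2 to 281 CPM in WT libraries, and at 24 h the means were 431 ± 69.0 CPM in KO and 296 ± 128 CPM in WT libraries (n = 5 each). Under IL-2 blockade for 24 h the means were 202 ± 19.1 CPM in KO and 209 ± 14.1 CPM in WT libraries (n = 4 each). Ly6c1, by contrast, fell on stimulation, with log2 changes at 2 h against 0 h of −3.36 ± 0.42 in KO and −3.01 ± 0.39 in WT cells. Its KO minus WT difference in the 30-library fit was −1.35 ± 0.36 at 0 h, −1.70 ± 0.43 at 2 h and 0.33 ± 0.39 at 6 h, none of them called (edgeR, adjusted p = 0.40, 0.14 and 0.89).

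**Figure D5:**
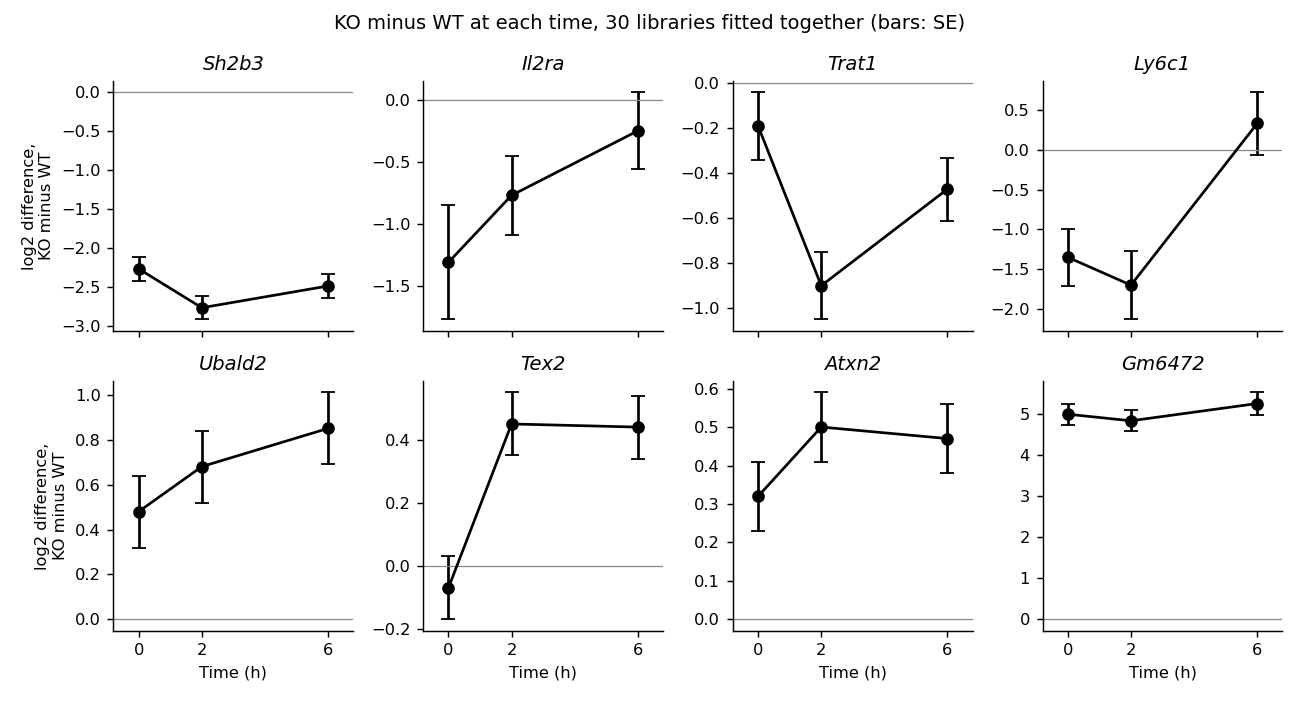
Log2 difference (KO minus WT) of the 8 called genes at 0, 2 and 6 h from 1 fit of 30 libraries (5 of each genotype at each time), with SE bars and a separate y axis per panel. Sh2b3, Gm6472, Ubald2, Atxn2, Il2ra and Trat1 keep their sign at each time, Tex2 is near 0 at 0 h, and Ly6c1 crosses 0 at 6 h.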

How the data were processed

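Messenger RNA of purified CD8 T cells was sequenced, and the authors deposited raw counts per gene for 60 libraries in 1 table. Per the submitters' processing notes, the tools were FastQC 0.119.9, STAR 2.7.9a, SAMtools, Picard 2.42.2 and featureCounts 2.0.1 of Subread, with the build GRCm39. Strand settings are not given in the sources used here, so whether overlapping genes were separated is not known. How reads of near-identical copies were counted is not given either. Of 55414 gene identifiers, 52081 (99.57% of counts) were named from GENCODE M21 and an identifier table.

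The 10 libraries at 2 h were fitted alone with edgeR 4.0.16 under R 4.3.3 (filterByExpr minimum count 10, TMM, robust quasi-likelihood F test, Benjamini-Hochberg adjustment). KO was compared with WT, and interactions with 0 h and 6 h used libraries numbered 1 to 30. Library measures used an exact permutation test. No 2 libraries of a group were duplicates (chi-square per degree of freedom at least 6.94). The alternatives were DESeq2 1.42.0 size factors and Wald test, no count filter, limma 3.58.1 voom with quality weights, a joint 30-library fit, a 1.5-fold minimum and leaving out each library.

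The lists, tests and alternatives were chosen with earlier results of these data known, and the promoter motifs after the sequences were seen. Named genes are Sh2b3, all called genes, the 12 uncalled genes of smallest p at a mean of at least 4 CPM, up to 3 genes per list by p, and a fixed set of cytokine and activation genes, of which those of little weight are left out. Predicted genes and pseudogenes are left out of the parts chosen by p. Genes outside this rule, such as Coro2a, Ly6a and Atg2a, were chosen after their values were seen.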

Additional observations from a re-analysis of the deposited data

Results flagged for a closer look

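Values were set aside where 1 of the 5 libraries of a group lay far from the other 4, by Dixon's criterion at 95%. This held for 27 of 248 groups of values examined, 23 of them in KO. The rate of about 1 in 20 by chance applies to independent, normally distributed values. These values come from the same libraries, and list sums contain flagged genes such as Eomes and Cd163l1. That rate is therefore not a standard for the count. The same libraries recur: 14 concern KO replicate 3 and 6 concern KO replicate 5.

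KO replicate 3 was the highest KO library for Tbx21 (156.2 CPM), Cd163l1 (135.2 CPM), Socs3 (130 CPM), Irf1 (358 CPM), Cxcr3 (85.8 CPM), Bag3 (71.4 CPM), Ubald2 (237 CPM) and Ccl5, a chemokine gene (37.4 CPM). It was also the highest for Plekha6 (17.04 CPM), Ifng, the interferon gamma gene (4.07 CPM), Prdm1, which encodes the effector factor BLIMP-1 (3.94 CPM), summed memory-phenotype genes (2488 CPM) and summed gamma delta T cell markers (560 CPM). It was the lowest for Cd3g, a chain of the T cell receptor complex (177 CPM).

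KO replicate 5 was the lowest KO library for Eomes (11.3 CPM) and Cd5, a receptor that dampens antigen receptor signals (230 CPM, against 470 to 502 CPM in the other 4). It was also the lowest for summed NK cell markers (14.6 CPM, 11.3 CPM of it Eomes), which is not a separate result. It was the highest for Txnip (683 CPM), summed erythroid markers (99.0 CPM) and the number of genes detected (19033). Cd5 was lower in KO than in WT in all libraries, at 230 to 502 and 527 to 624 CPM (edgeR, adjusted p = 0.34).

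KO replicate 4 was the highest for Gm6472 (388 CPM) and summed monocyte and macrophage markers (18.5 CPM, 13.5 CPM of it Ccr2). KO replicate 1 was the highest for Zfp984 (27.6 CPM). In WT, replicate 1 was the highest for Cxcr3 (10.1 CPM), replicate 5 the highest for Txnip (498 CPM) and the lowest for Wdr75, a ribosome biogenesis gene (75.3 CPM), and replicate 4 had the largest share of counts in its 50 most abundant genes (14.3%). What sets these libraries apart was not tested.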

How the results depend on the processing

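The 8 calls of KO against WT at 2 h depended on the processing. There were 4 with DESeq2 size factors, 230 without a count filter, 122 by the DESeq2 Wald test, 82 by limma voom with quality weights, 13 in the joint fit of 30 libraries, 6 with a fold change of at least 1.5 and 3 to 63 when 1 library was left out; the cause was not tested. With KO replicate 3 left out, a setting added after seeing the data, the DESeq2 Wald test called 300 and the joint fit 8. Sh2b3 and Gm6472 were called in each of these fits, Ubald2 in all but the joint ones, and the 8 kept their direction throughout. All 8 were among the calls without a count filter, by the DESeq2 Wald test and by limma voom. No paired analysis was possible because the 2 h libraries carry no shared numbers between genotypes. For the interactions, library numbers 10 apart served as a replicate block, although only some pairs correlated above 0.1 (−0.019 to 0.594). Each 2 h library correlated more with the 0 h library of its own number than with the others of its genotype. At 6 h this held for each KO library but not for each WT library. The block gave 2 calls (Vps37b and Fam102b) for 2 h against 0 h and 0 against 6 h. The same edgeR fits without the block gave 0. Against 0 h the DESeq2 Wald test gave 2, and fits without 1 library 0 to 3 (Atg2a, Ezr and Pea15a without WT replicate 5); against 6 h they gave 0. The mean difference in mitochondrial share ranged from −0.278 to −0.153 percentage points, and that of the 50 most abundant genes from 0.0375 to 0.429, without 1 library. Of 83 named genes 71 kept their direction. Without 1 library the others ranged from −0.44 to 0.10 for Il2, −0.10 to 0.42 for Cish, −0.17 to 0.19 for Myc, −0.31 to 0.06 for Eomes, −0.59 to 0.13 for Gzmb, −0.19 to 0.31 for Egr1, −0.35 to 0.14 for Egr2, −0.20 to 0.40 for Egr3, −0.06 to 0.53 for Nr4a1, −0.22 to 0.03 for Cd69, −0.34 to 0.12 for Ly6c2 and −0.18 to 1.39 for Cd163l1. Cish was −0.002 by voom. With KO replicate 3 left out of the joint fit and of the DESeq2 fit, Cish was −0.11 and −0.10, Egr1 −0.20 and −0.19, Egr3 −0.21 and −0.20, Nr4a1 −0.07 in both, and Cd163l1 −0.19 and −0.18. Of 35 list medians, 4 moved by more than the spread between libraries under some setting. At 14224604 to 19013798 counts per library, genes under about 1 CPM rest on few reads, and their differences are imprecise.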
